A study of Homo sapiens with 6 samples.

Results

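A group of 8 genes for transcription factors of liver development and hepatocyte function were followed in Huh-7, a human hepatocellular carcinoma line, by RNA sequencing. They are GATA4, GATA6, CEBPA, CEBPB, PROX1, HHEX, TBX3 and CREB3L3, chosen by name, and all were found as single entries among the 50868 genes of the count table. Wild-type Huh-7 cells were given the peptide P-T3H2 or, as controls, the peptide P-T3H2-2A, each at 20 µM for 5 days, with 3 libraries per group. The comparison bears on how hepatocyte regulators respond to a peptide that the study's title describes as stabilising the HNF4α protein; untreated cells were not analysed here. Separate cultures are not stated for the replicates, so p-values measure a spread between libraries that may be only technical.

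The GATA factors are zinc-finger proteins that open and mark liver genes when the liver bud forms. The C/EBP factors are basic leucine zipper proteins: C/EBPα maintains the metabolic programme of the hepatocyte and restrains its division, and C/EBPβ drives acute-phase and regeneration genes. HHEX and PROX1 are homeobox factors needed for the liver bud to grow and for hepatoblasts to leave it, TBX3 is a T-box repressor that keeps hepatoblasts dividing and on the hepatocyte path, and CREB3L3 is a membrane-bound bZIP factor of the endoplasmic reticulum that is cut free to activate genes of lipid and iron handling.

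Libraries held 17434442 to 21374732 gene counts. The library labelled P-T3H2-2A replicate 3, written control 3 from here on, lay nearer to the P-T3H2 libraries (root-mean-square difference of 0.406 in log2 CPM, the count scaled to library size) than to the other controls (0.762), so results are given with all 6 libraries and for the 5 libraries that remain without it. Each P-T3H2 library lay at 0.374 to 0.387 from the others of its group. Control 3 was left out because of its values in these same data, so tests with 5 libraries are no independent evidence of a difference. Whether the label of control 3 is right could not be settled from the files. Every mean, SD, overlap and fold change over all 6 libraries takes that label as given. In edgeR, a count-based test whose p-values were adjusted by Benjamini-Hochberg over all genes, 1 of 15946 genes passed 0.05 with all 6 libraries (0.00627%), and 7390 of 16281 passed with 5 libraries (45.4%; 22.6% higher and 22.8% lower with P-T3H2). The share of counts from mitochondrial genes was 6.27% and 6.25% in controls 1 and 2, 7.32% in control 3 and 7.30% to 7.85% with P-T3H2, and its part in the results was not tested. In RNA from a whole culture, fewer cells expressing a gene and less RNA per cell cannot be told apart.

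HHEX, the homeobox gene, was lower with P-T3H2 in every library, and GATA4, CREB3L3 and TBX3 were higher in every library. These 4 of 8 genes had groups that did not overlap, a placing that 23.4% of all genes tested shared (11.8% higher and 11.6% lower). None of the 8 passed in edgeR with all 6 libraries, although 4 had an unadjusted p under 0.05, as 18% of genes did. DESeq2, a second count-based test, called 1 of them, HHEX, lower, where it called 0.859% of genes (0.288% higher and 0.571% lower). With 5 libraries edgeR called 6 of the 8, beside 45.4% of all genes: GATA4, CREB3L3 and TBX3 rose, and HHEX, CEBPB and CEBPA fell. DESeq2 there called 7 of the 8, adding PROX1 as higher, beside 42.5% of genes (21.1% higher and 21.4% lower). With control 3 as the only control, none of the 8 passed in edgeR, where 0.368% of genes passed. GATA4 and HHEX had an unadjusted p under 0.05 there, as 732 of 16849 genes did. The median log2 fold change of the 8 was 0.19 with all libraries and 0.28 with 5, where those of all genes were -0.004 and 0.003.

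**Figure D1:**
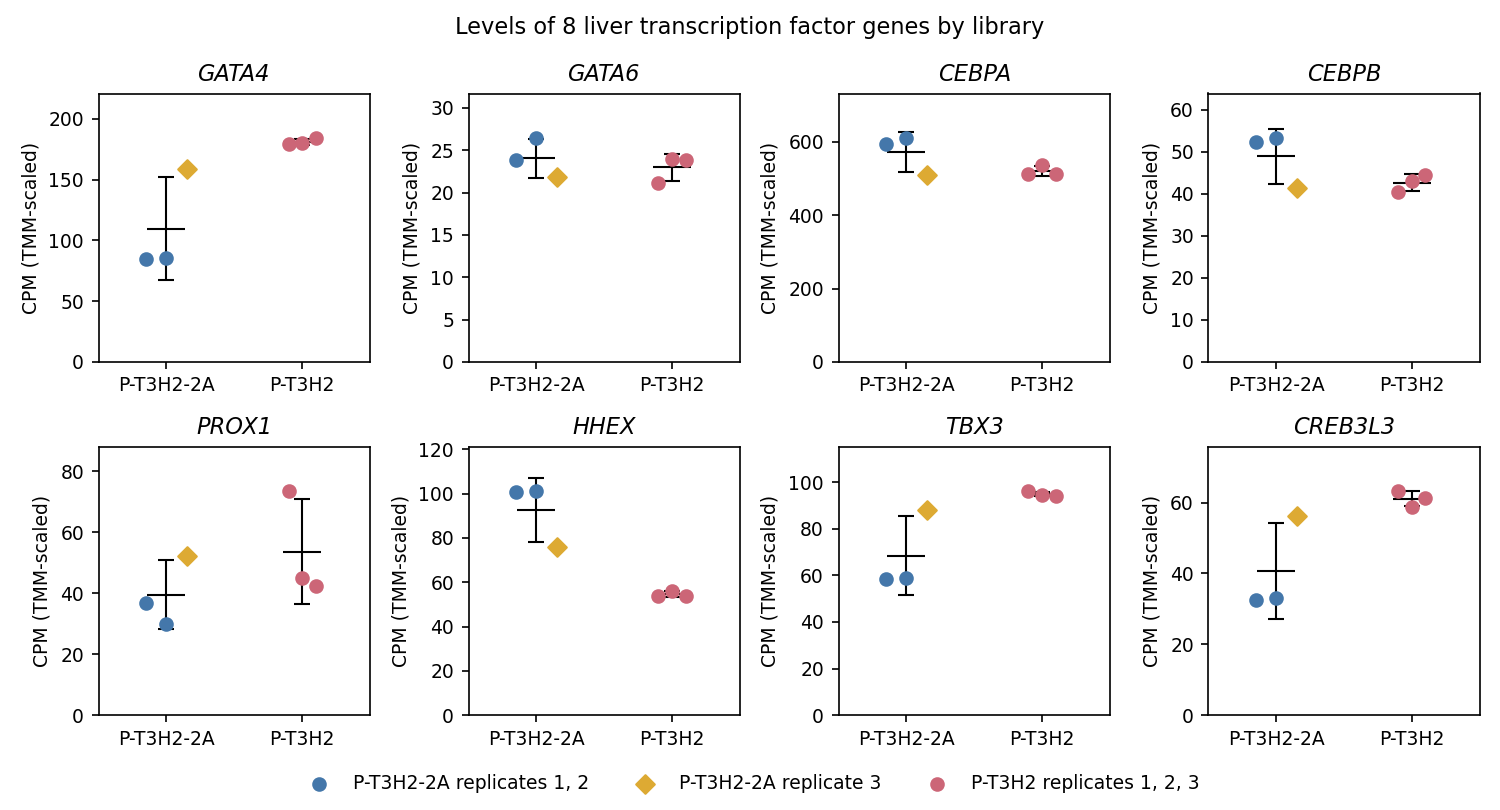
Level of each gene in each library, in CPM on linear axes that start at 0. Circles are P-T3H2-2A replicates 1 and 2 and the P-T3H2 libraries, diamonds are P-T3H2-2A replicate 3, and horizontal bars with whiskers give the mean and SD of each group (n = 3). GATA4, HHEX, TBX3 and CREB3L3 have groups that do not overlap, with the diamond of HHEX at 76.0 CPM, between the other controls and the P-T3H2 libraries.

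Sequence before the annotated start is shown for the HHEX, CREB3L3 and CEBPA genes, since HHEX and CREB3L3 changed in opposite directions and CEBPA shares its start region with a divergent RNA that fell along with it once control 3 was left out. RefSeq start sites (GRCh38.p14) were matched by symbol for 5 of the 8 genes, and the 250 bases before the start are printed 5′ to 3′ on the gene's strand, with motif matches in capitals.
HHEX, chr10:92689705-92689954, plus strand: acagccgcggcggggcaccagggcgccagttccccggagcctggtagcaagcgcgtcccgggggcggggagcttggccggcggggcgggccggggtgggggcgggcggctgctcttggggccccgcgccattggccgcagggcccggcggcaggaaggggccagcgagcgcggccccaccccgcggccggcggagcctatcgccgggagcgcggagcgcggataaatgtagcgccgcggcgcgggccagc
CREB3L3, chr19:4153381-4153630, plus strand: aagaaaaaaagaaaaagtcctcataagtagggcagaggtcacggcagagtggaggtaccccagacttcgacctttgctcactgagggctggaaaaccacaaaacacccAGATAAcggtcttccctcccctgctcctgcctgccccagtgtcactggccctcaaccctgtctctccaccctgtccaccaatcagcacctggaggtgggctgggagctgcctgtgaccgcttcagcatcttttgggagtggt
CEBPA, chr19:33302535-33302784, minus strand: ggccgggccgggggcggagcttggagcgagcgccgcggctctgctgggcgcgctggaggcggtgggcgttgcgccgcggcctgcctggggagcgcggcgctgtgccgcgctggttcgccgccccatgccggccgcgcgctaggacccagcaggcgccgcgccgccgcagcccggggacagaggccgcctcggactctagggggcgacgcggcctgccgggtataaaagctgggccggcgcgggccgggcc

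Both strands were searched for AGATAA (the GATA motif), TTGCNNAA (C/EBP), CAAAGTCCA (HNF4) and TGACGT (the core of a cAMP response element). No match overlapped another. The CREB3L3 window held 1 match, AGATAA, which begins 142 bases before the start, and the windows of HHEX and CEBPA held none of these letters. Among 35116 such windows, 9.17% held AGATAA, 9.05% TTGCNNAA, 0.325% CAAAGTCCA and 7.10% TGACGT. G and C made up 81.2% of the HHEX window, 81.2% of the CEBPA window and 56.0% of the CREB3L3 window. A match is a description of the letters and not a site shown to be bound.

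GATA4 (ENSG00000136574, chromosome 8, 11676959 to 11760002, plus strand, GRCh38, 7 exons in its longest coding transcript) measured 84.7, 85.5 and 159 CPM in controls 1 to 3 and 179, 180.1 and 184 CPM in the P-T3H2 libraries. The control libraries all lay below the P-T3H2 libraries, with control 3 close under them and the other controls far lower. The means were 110 ± 42.7 CPM (SD, n = 3) and 181 ± 2.71 CPM (SD, n = 3), so nearly all of the spread lay among the controls. This amounted to 0.72 as log2 fold change (standard error, SE, 0.253; adjusted p in edgeR 0.275). Permuting the labels exactly, two-sided, gave p = 0.1, the smallest that 20 splits allow. With 5 libraries, GATA4 rose 2.13-fold (log2 fold change 1.09, SE 0.0476, edgeR adjusted p = 1.89e-05).

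GATA6 (ENSG00000141448, chromosome 18, 22169443 to 22202528, plus strand, 7 exons), the other GATA gene of endoderm, did not share this pattern. It stood at 23.9, 26.4 and 21.8 CPM with P-T3H2-2A and at 21.2, 23.9 and 23.8 CPM with P-T3H2, and the groups overlapped. Its log2 fold change of -0.06 (SE 0.114; adjusted p in edgeR 0.731) became -0.13 with 5 libraries (SE 0.0929, adjusted p = 0.284). Per length, in the FPKM deposited by the authors, GATA4 exceeded GATA6 by 1.60 and 1.46 times in controls 1 and 2, by 3.29 times in control 3 and by 3.81, 3.39 and 3.48 times with P-T3H2. The ratio of GATA4 to GATA6 was thus higher in every P-T3H2 library than in any control.

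GATA6-AS1, a noncoding RNA beside GATA6 on the other strand, was near the limit of detection, at 1.16, 0.742 and 0.518 CPM in the controls and 0.326, 0.675 and 0.282 CPM with P-T3H2, and did not pass in either comparison (edgeR adjusted p = 0.299 and 0.0865).

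Among relatives and cofactors, 3 of 6 genes were expressed enough to be tested. GATA1, GATA5 and ZFPM2, the factors best known from blood, gut and heart, had 0 counts in all libraries. None of the 3 passed with all libraries in edgeR or DESeq2, with a median log2 fold change of 0.38, and 2 rose with 5 libraries (median 0.49), where 22.6% of all genes were called higher. ZFPM1, the FOG cofactor that binds GATA factors, stood at 33.1, 30.8 and 52.3 CPM in the controls and 60.6 ± 3.32 CPM (SD, n = 3) with P-T3H2. It had a log2 fold change of 0.65 with all libraries (edgeR adjusted p = 0.275) and rose by 0.92 with 5 libraries (adjusted p = 0.000142). GATA2, a blood and endothelial GATA factor, stood at 26.6, 25.7 and 32.7 CPM against 36.9 ± 2.01 CPM (SD, n = 3), with a rise of 0.49 in the latter comparison (adjusted p = 0.00214; log2 fold change 0.38 with all libraries).

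CEBPA (ENSG00000245848, chromosome 19, 33299934 to 33302564, minus strand, 1 exon) was the most abundant of the 8 genes. It stood at 595, 610.1 and 509.5 CPM with P-T3H2-2A and at 514, 538 and 511 CPM with P-T3H2. Control 3 was the lowest of all libraries, so the groups overlapped. The log2 change was -0.13 (SE 0.0967; adjusted p in edgeR 0.403). With 5 libraries CEBPA fell by 0.21 on the log2 scale (SE 0.0452, edgeR adjusted p = 0.00794), a 1.16-fold difference, and it did not pass there once control 2 was also left out (adjusted p = 0.0586).

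CEBPB (ENSG00000172216, chromosome 20, 50190734 to 50192689, plus strand, 1 exon) behaved much like CEBPA at a lower level. It stood at 52.2, 53.2 and 41.4 CPM with P-T3H2-2A and at 40.4, 43.1 and 44.4 CPM with P-T3H2, with control 3 inside the P-T3H2 range. With all libraries the log2 fold change came to -0.20 (SE 0.121; adjusted p in edgeR 0.339). With 5 libraries CEBPB fell by 0.31 (SE 0.0668, edgeR adjusted p = 0.0086), a 1.24-fold difference, with an adjusted p of 0.0548 once control 2 was also left out. Set against control 3 alone, CEBPA and CEBPB had log2 fold changes of 0.03 and 0.04, of the opposite sign. The FPKM ratio of CEBPA to CEBPB ran from 8.47 to 9.15 in the controls and from 8.56 to 9.44 with P-T3H2, which overlapped.

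CEBPA-DT, a long noncoding RNA that starts 287 bases from CEBPA and runs the other way, stood at 25.1, 23.6 and 18.3 CPM in the controls and 18.1 ± 1.21 CPM (SD, n = 3) with P-T3H2. It fell by 0.43 with 5 libraries (edgeR adjusted p = 0.00705), with a log2 fold change of -0.30 with all libraries (adjusted p = 0.28). CEBPB-AS1, on the strand opposite to CEBPB, held 4 to 10 counts per library beside at least 869 for CEBPB and was too low to be tested. The strand setting of the counting is not given in the sources used here, so reads of a gene and of its antisense partner cannot be told apart.

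Of 15 C/EBP relatives, dimer partners and Tribbles regulators, 14 were tested and CEBPE, a granulocyte factor, had 0 counts. None passed with all libraries in edgeR or DESeq2 (median log2 fold change -0.05), while 4 rose and 4 fell with 5 libraries (median -0.06), where 45.4% of all genes were called. TRIB1, a pseudokinase that brings C/EBPα to the COP1 ubiquitin ligase, stood at 34.4, 30.4 and 55.2 CPM in the controls and 57.9 ± 6.12 CPM (SD, n = 3) with P-T3H2. It rose by 0.84 with 5 libraries (edgeR adjusted p = 0.00082, log2 fold change 0.53 with all libraries). There TRIB2 also rose (1.21), TRIB3 fell (-0.94, edgeR adjusted p = 0.0343) and COP1 was not called (-0.17). CEBPG, a C/EBP that pairs with the others but lacks an activation domain, stood at 169, 169.9 and 135 CPM against 135 ± 3.65 CPM (SD, n = 3) and fell by 0.33 in the same comparison (adjusted p = 0.00163; -0.23 with all libraries).

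Target genes that C/EBP factors are known to bind in liver moved in both directions. Of 15, 11 were tested, with a median log2 fold change of 0.13 with all libraries; PCK1 and CRP had 0 counts throughout. With all libraries edgeR called 0 of the 11 and DESeq2 called ORM1 lower (adjusted p = 0.00787). With 5 libraries, 5 rose and 3 fell (median 0.15), beside 22.6% and 22.8% of all genes. The 3 that fell were the acute-phase protein genes ORM1 and HP and the iron hormone gene HAMP, with log2 fold changes of -2.81, -2.52 and -1.52 against -2.34, -2.04 and -1.23 with all libraries. SERPINA1, for alpha-1-antitrypsin, measured 1849 and 1757 CPM in controls 1 and 2 and 2462, 2431 and 2523 CPM with P-T3H2, with control 3 above all of these, and rose by 0.45 with 5 libraries (adjusted p = 0.000237; 0.27 with all libraries).

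HHEX (ENSG00000152804, chromosome 10, 92689951 to 92695646, plus strand, 4 exons) stood at 100.8, 101 and 76.0 CPM with P-T3H2-2A and at 53.9, 56.1 and 53.9 CPM with P-T3H2. Every control lay above every P-T3H2 library, and control 3 stood apart from both sides. The means were 92.6 ± 14.4 CPM (SD, n = 3) and 54.6 ± 1.29 CPM (SD, n = 3). In edgeR its log2 fold change was -0.76 (SE 0.128, unadjusted p = 0.00074, adjusted p = 0.275), and DESeq2 called it lower with an adjusted p of 0.00101. The exact permutation p was 0.1, the smallest possible here, as it was for TBX3 and CREB3L3. With 5 libraries HHEX fell by 0.89 (SE 0.0531, edgeR adjusted p = 4.86e-05), a 1.85-fold difference. Against control 3 alone it came to -0.47 on the log2 scale (SE 0.0825; adjusted p in edgeR 0.127), the value farthest from 0 among the 8 genes.

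The place of control 3 between the other controls (0%) and the P-T3H2 libraries (100%) was computed on the log2 scale. For 3141 genes that passed with 5 libraries, with at least 5 CPM and a log2 fold change of at least 0.5 in size, the median place was 94.8% and the quartiles were 83.8% and 104%. HHEX stood at 46.2%, and 89 of these genes (2.83%) had a lower place. GATA4, TBX3 and CREB3L3 stood at 82.8%, 84.3% and 86.7%, near the lower quartile. This is a description of 1 library, with no test.

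**Figure D2:**
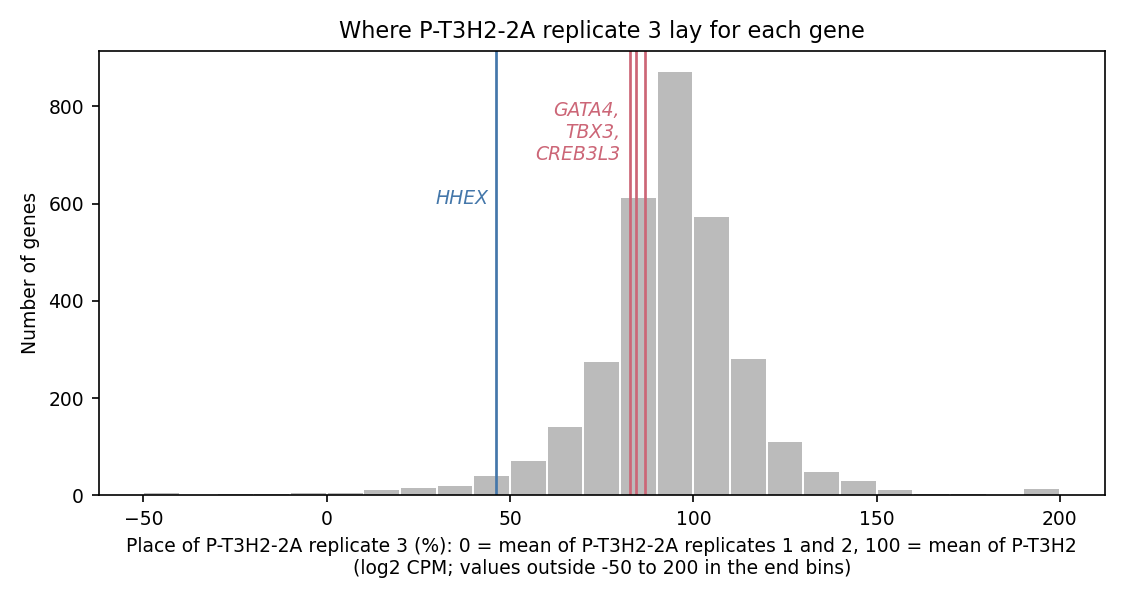
Histogram of the place of P-T3H2-2A replicate 3 for 3141 genes, in percent of the log2 distance from the mean of P-T3H2-2A replicates 1 and 2 to the mean of the P-T3H2 libraries, with the number of genes on the vertical axis. Vertical lines mark HHEX at 46.2% and GATA4, TBX3 and CREB3L3 at 82.8%, 84.3% and 86.7%.

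TBX3 (ENSG00000135111, chromosome 12, 114670254 to 114684164, minus strand, 7 exons) stood at 58.5, 58.7 and 88.0 CPM with P-T3H2-2A and at 96.0, 94.7 and 94.2 CPM with P-T3H2. The P-T3H2 libraries had a coefficient of variation of 0.995%, the smallest among the 8 genes, and all controls lay below them. All 6 libraries gave a log2 change of 0.47 (SE 0.171; adjusted p in edgeR 0.275). With 5 libraries TBX3 rose 1.62-fold (log2 fold change 0.70, SE 0.0514, edgeR adjusted p = 1e-04).

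PROX1 (ENSG00000117707, chromosome 1, 213983181 to 214041502, plus strand, 5 exons) varied more among the P-T3H2 libraries than the other 7 genes did. It stood at 36.7, 29.8 and 52.1 CPM with P-T3H2-2A and at 73.3, 45.1 and 42.5 CPM with P-T3H2. P-T3H2 replicate 1 was the highest library and the others lay below control 3, with a coefficient of variation of 31.9% among the P-T3H2 libraries. Its log2 fold change of 0.44 with all libraries (SE 0.283; adjusted p in edgeR 0.358) became 0.69 with 5 (SE 0.308, adjusted p = 0.146), where DESeq2 gave an adjusted p of 0.0272. Leaving out P-T3H2 replicate 1 as well gave 0.40 (edgeR adjusted p = 0.0387). PROX1-AS1, on the opposite strand, held 75 to 126 counts per library, between 7.05% and 17.8% of the PROX1 count, and its log2 fold change was -0.04 with all libraries and 0.07 with 5 (edgeR adjusted p = 0.744).

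Relatives and partners of PROX1, HHEX and TBX3 numbered 15, of which 11 were tested; PROX2 and TBX5 had 0 counts. None passed with all libraries in edgeR or DESeq2 (median log2 fold change 0.10), and 5 rose and 3 fell with 5 libraries (median 0.11), beside 45.4% of all genes called. TBX2, the T-box repressor closest to TBX3, stood at 13.3, 13.1 and 30.3 CPM in the controls and 36.6 ± 3.30 CPM (SD, n = 3) with P-T3H2. It rose by 1.47 with 5 libraries (edgeR adjusted p = 7.09e-05; log2 fold change 0.95 with all libraries). TLE4, a Groucho-type corepressor that HHEX binds, stood at 7.05, 6.38 and 21.2 CPM against 22.0 ± 1.25 CPM (SD, n = 3). This was a rise of 1.71 with 5 libraries (edgeR adjusted p = 5.25e-05, 0.93 with all libraries). Its relative TLE1 stood at 86.3, 77.4 and 56.1 CPM against 50.8 ± 1.46 CPM (SD, n = 3). TLE1 fell by 0.69 with 5 libraries (edgeR adjusted p = 0.000295, -0.53 with all libraries). TLE3 rose there by 0.59, and TLE2 was not called. HNF4A, the nuclear receptor that PROX1 binds and represses, stood at 123, 123 and 76.5 CPM against 76.8 ± 3.09 CPM (SD, n = 3) and fell by 0.69 (adjusted p = 0.000137; -0.49 with all libraries).

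CREB3L3 (ENSG00000060566, chromosome 19, 4153601 to 4173054, plus strand, 10 exons) stood at 32.6, 33.0 and 56.3 CPM with P-T3H2-2A and at 63.2, 58.9 and 61.4 CPM with P-T3H2. All controls lay below all P-T3H2 libraries, control 3 by a narrow margin. The means were 40.6 ± 13.5 CPM (SD, n = 3) and 61.1 ± 2.15 CPM (SD, n = 3). For all 6 libraries the log2 fold change came to 0.59 (SE 0.221; adjusted p in edgeR 0.275). With 5 libraries CREB3L3 rose 1.86-fold (log2 fold change 0.89, SE 0.064, edgeR adjusted p = 8.75e-05).

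**Figure D3:**
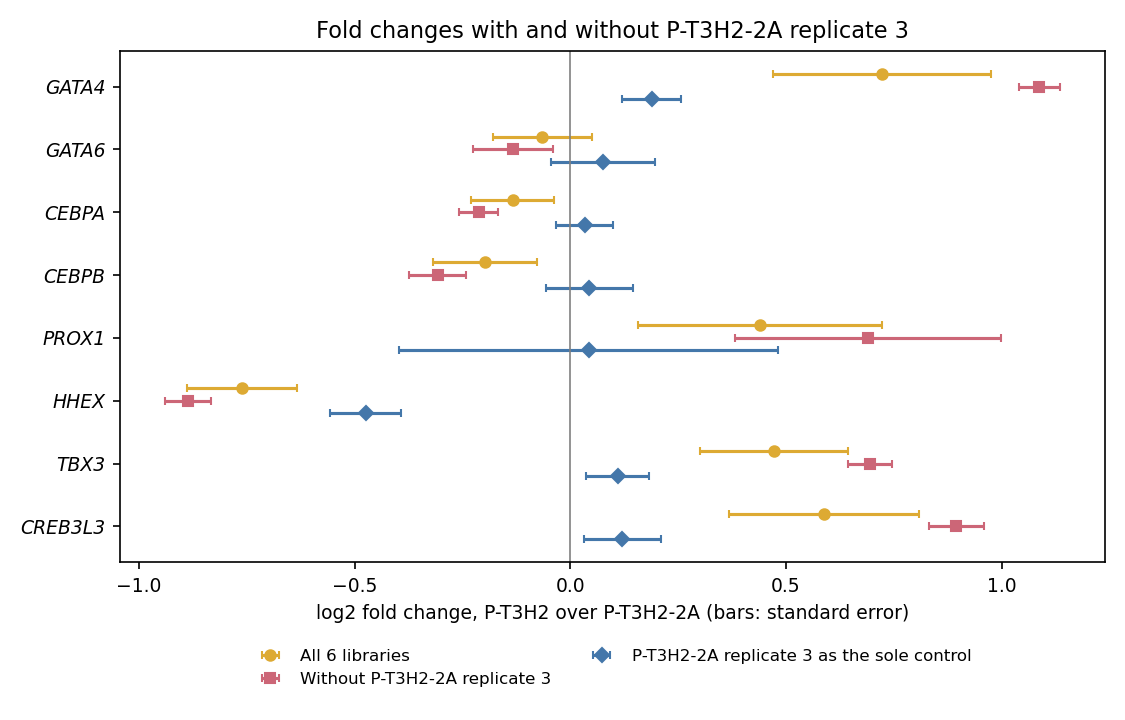
Log2 fold change of P-T3H2 over P-T3H2-2A on the horizontal axis for each of the 8 genes, with standard errors as bars, in 3 comparisons: all 6 libraries (circles), without P-T3H2-2A replicate 3 (squares) and control 3 as the only control (diamonds). HHEX stays below 0 in all 3, from -0.89 to -0.47, while GATA4 ranges from 0.19 to 1.09.

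CREB3L3 is activated when the Golgi proteases encoded by MBTPS1 and MBTPS2 cut it. Its family, its close relatives ATF6 and ATF6B, these proteases, and SYVN1 and SEL1L made a list of 10 genes, all tested. None passed with all libraries in edgeR or DESeq2 (median log2 fold change -0.11), and 3 rose and 4 fell with 5 libraries (median -0.17), beside 45.4% of all genes called. SYVN1 was among those that rose and SEL1L among those that fell (log2 fold changes of 0.30 and -0.18). CREB3L1, a family member of secretory cells, stood at 3.52, 2.67 and 9.32 CPM in the controls and 9.66 ± 1.35 CPM (SD, n = 3) in P-T3H2 libraries, a rise of 1.65 with 5 libraries (edgeR adjusted p = 0.000553; log2 fold change 0.90 with all libraries). ATF6, a sensor of unfolded protein, stood at 48.6, 49.8 and 37.5 CPM against 33.2 ± 2.35 CPM (SD, n = 3) and fell by 0.57 (adjusted p = 0.00124; -0.45 with all libraries).

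Target genes of CREB3L3, known mostly from mouse liver, numbered 10, of which 6 were tested; FGF21, CRP and PCK1 had 0 counts. None passed with all libraries in edgeR or DESeq2 (median log2 fold change 0.38). With 5 libraries, APOA5, G6PC and PPARA rose and HAMP fell (median 0.57), beside 22.6% of all genes called higher and 22.8% lower. PPARA, the fatty acid receptor, stood at 6.76, 6.43 and 10.9 CPM in the controls and 11.1 ± 1.17 CPM (SD, n = 3) in P-T3H2 libraries, a rise of 0.76 in that comparison (edgeR adjusted p = 0.00345; log2 fold change 0.47 with all libraries). HAMP, which encodes hepcidin, stood at 8.67, 8.95 and 4.05 CPM against 3.07 ± 0.615 CPM (SD, n = 3) and fell by 1.52 (adjusted p = 0.000659). HAMP and G6PC also belong to the C/EBP target list.

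**Figure D4:**
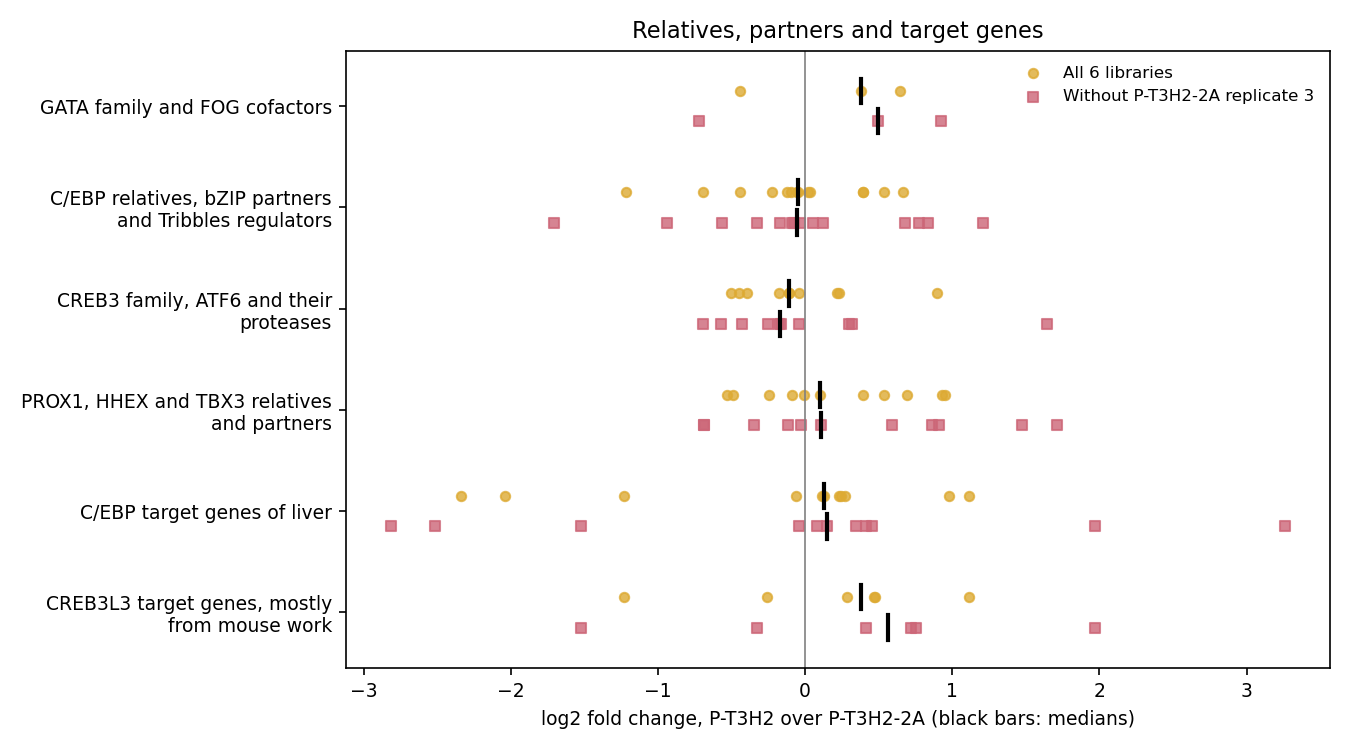
Log2 fold change of P-T3H2 over P-T3H2-2A on the horizontal axis for the tested genes of 6 lists, with all libraries (circles) and without P-T3H2-2A replicate 3 (squares). Black bars are medians, which lie between -0.17 and 0.57, and genes of each list lie on both sides of 0.

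Levels between genes were compared per length, in FPKM. With P-T3H2, CEBPA stood at 198 ± 4.97 FPKM (SD, n = 3), CEBPB at 21.8 ± 0.985, GATA4 at 15.3 ± 0.228, CREB3L3 at 13.7 ± 0.531, HHEX at 10.6 ± 0.216, TBX3 at 8.63 ± 0.109, GATA6 at 4.31 ± 0.279 and PROX1 at 2.72 ± 0.876. The ranges of neighbours in this order did not overlap, though the gaps between GATA4 and CREB3L3 and between GATA6 and PROX1 were smaller than the range within CREB3L3 and PROX1. In controls 1 and 2 the order differed: HHEX, at 19.4 and 19.6 FPKM, came next after CEBPB, ahead of CREB3L3 at 7.24 and 7.39 and GATA4 at 7.09 and 7.22, whose ranges nearly met. FPKM divides by 1 length per gene, which for 6 of the 8, all but CEBPA and CEBPB, was longer than the longest coding transcript. It was 5166 bases for HHEX, 11860 for GATA4 and 19766 for PROX1, where those transcripts have 1727, 3414 and 8498 bases, so this order, the place of HHEX below CEBPB included, depends on the length used.

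**Figure D5:**
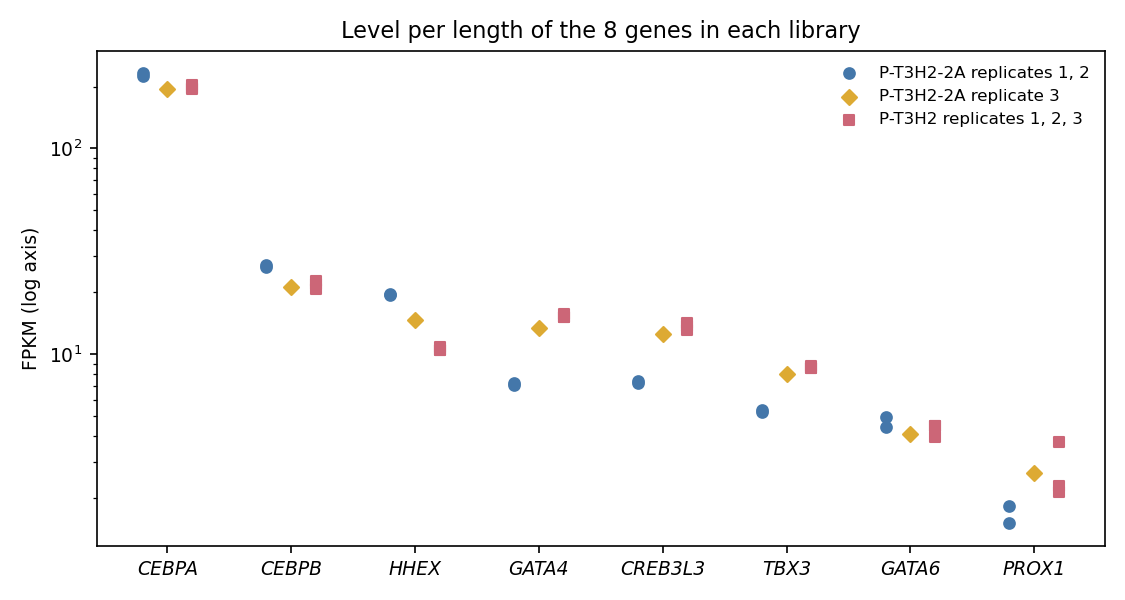
Level per length of the 8 genes in each library, in FPKM on a log axis, with genes ordered by their mean. Circles are P-T3H2-2A replicates 1 and 2, diamonds P-T3H2-2A replicate 3 and squares P-T3H2. CEBPA lies highest at 194 to 232 FPKM and PROX1 lowest at 1.51 to 3.73 FPKM.

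For each of the 8 genes, the genes with the most similar pattern over the 6 libraries were found among 11136 others, by the root-mean-square difference of centred log2 CPM. They share these libraries, so the value is a description. TBX3 lay closest to FURIN, a proprotein convertase (0.017), and SLC25A15, the mitochondrial ornithine carrier (0.020). CREB3L3 lay closest to SLC17A9, a vesicular nucleotide transporter (0.019), and SLCO1B3, a hepatocyte uptake transporter (0.029). GATA4 lay closest to SESN2, a stress-induced sestrin (0.036), and ATG2A, an autophagy lipid carrier (0.037). HHEX lay closest to SAAL1 (0.048), which stood at 24.4, 24.3 and 17.8 CPM in the controls and 13.5, 14.3 and 13.9 CPM with P-T3H2, and to THOC7, a subunit of the mRNA export complex THO (0.056). CEBPA was matched by VPS4A (0.012) and PSPHP1 (0.014), CEBPB by DDX19B (0.016) and TOMM70 (0.019), and GATA6 by ATP5F1D (0.016) and MMS19 (0.025). PROX1 had no close match: GPRC5C and ITM2C lay at 0.15.

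Since GATA4, PROX1, HHEX, TBX3 and the C/EBP genes are also expressed outside hepatocytes, markers of other cells were read beside them. All 10 hepatocyte markers were detected, with summed levels of 32800 to 33600 CPM in the controls and 30600 to 32200 CPM with P-T3H2. Within that sum 6 of the 10 were called with 5 libraries, 2 higher and 4 lower, beside 45.4% of all genes. The 2 that rose were the albumin gene ALB and SERPINA1 (log2 fold changes of 0.42 and 0.45, edgeR adjusted p = 0.00594 and 0.000237). FGB, for fibrinogen beta, measured 2963, 3002 and 811 CPM in the controls and 745.5 to 765 CPM with P-T3H2, and DESeq2 called FGB and the transferrin gene TF lower with all libraries (log2 fold changes of -1.59 and -0.37, adjusted p = 0.0362 and 0.0297). Of 10 endothelial markers, KDR, FLT1, FLT4, PDPN and TEK had 0 counts, and the sum, mostly PECAM1, was 12.1, 11.5 and 4.61 CPM in controls 1 to 3 and 5.13 to 5.77 CPM with P-T3H2. Of 10 stellate and mesenchymal markers, ACTA2 and DES had 0 counts and 5 had a mean under 1 CPM, and the sum was 59.6, 61.5 and 102 CPM in controls 1 to 3 and 98.1 to 102 CPM with P-T3H2. The 7 biliary markers summed to 287, 301 and 481 CPM in the controls and 451 to 486 CPM with P-T3H2, with KRT7 under 1 CPM. The 8 myeloid markers summed to 136, 144 and 656 CPM and to 580.0 to 687 CPM, nearly all of it LYZ, with ELANE at 0 counts and SPI1, CSF1R and ITGAM under 1 CPM. The stellate, biliary and myeloid sums were higher, and the endothelial sum lower, in control 3 and the P-T3H2 libraries, where GATA4 was also high. Huh-7 is a single cell line, so these sums are levels of marker genes and do not count other cells. Their part in the GATA4 difference was not tested. Of the endothelial markers, 2 had enough counts for edgeR, and they moved apart with 5 libraries. PECAM1 fell (log2 fold change -1.725, edgeR adjusted p = 0.000116) and VWF rose (4.16, adjusted p = 0.00217). VWF was near the limit of detection, at 0.173, 0 and 1.365 CPM in controls 1 to 3 and 1.54 ± 0.271 CPM (SD, n = 3) with P-T3H2. Each higher sum was carried by few genes (PDGFRA and PDGFRB, SOX9, and LYZ), of which SOX9 and LYZ reached 310 and 683 CPM. RGS5, SPP1, CD14 and CD68 of the same lists stood far lower, at no more than 6.68, 2.715, 7.52 and 2.37 CPM in any library. These fell with 5 libraries (log2 fold changes of -0.73, -0.86, -1.26 and -2.12, edgeR adjusted p at most 0.014). KRT19, EPCAM, COL1A2 and COL3A1 had log2 fold changes from -0.12 to 0.04 there and were not called.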

How the data were processed

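The authors deposited 1 table of 50868 human Ensembl genes with whole-number counts and FPKM for each of 6 libraries, per the file headers. The submitters' processing notes name HISAT2 2.0.4, StringTie 1.3.3b and edgeR, and the mouse build mm10, without roles. Of the gene IDs, 50111 are in GENCODE release 29 (GRCh38), 47484 with identical coordinates, the 8 genes among them, so coordinates are given for GRCh38. Annotation and strand setting were not given in the sources used here. FPKM as deposited used 1 length per gene in all libraries for 13364 of 13364 genes with at least 20 counts in each (relative tolerance 0.001).

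The deposited counts went into edgeR 4.0.16 (R 4.3.3) after filterByExpr (minimum count 10, total 15), with TMM scaling, a quasi-likelihood fit (robust, group only) and Benjamini-Hochberg adjustment over all genes at 0.05. The standard error is the log2 fold change divided by the square root of F. CPM are scaled by TMM. Exact permutation tests used 20 splits. The procedure was tested on simulated data. Alternatives used DESeq2 1.42.0, limma 3.58.1, other scalings and filters, log2(FPKM + 1) and log2(FPKM + 0.1), a replicate block and left-out libraries. Removal of a GC and length trend was added after seeing the data.

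The 8 genes and all lists were chosen with earlier results of these data known. Named genes were the 8; per pathway and target list, those called with all libraries and the 2 of smallest p without P-T3H2-2A replicate 3; their antisense or divergent neighbours; and the 2 of most similar pattern, with at least 5 CPM. HP, C3, HNF4A, FGB, TF, APOA5, G6PC, CREB3L2, HDAC3, ATF6B, SYVN1 and SEL1L were named after their values were seen. The same holds for TRIB2, TRIB3, COP1, TLE1, TLE2, TLE3, genes at 0 and single markers. All pairs of libraries differed beyond sampling noise (lowest chi-square per gene 11.6). That value was 12.6 to 13.4 between control 3 and the P-T3H2 libraries, and 11.8 to 13.8 among the P-T3H2 libraries. Between control 3 and controls 1 and 2 it was 77.6 and 84.7.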

Additional observations from a re-analysis of the deposited data

How the results depend on the processing

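Of 692 recomputed values of 44 results, 628 kept their direction and side of the threshold or stayed within 1.5 times. With all libraries few genes passed under most settings, so part of these only stayed not called or stayed at a count of 0. With all libraries, 1 gene was called, against 137 with DESeq2, 3 with limma-voom, 4 with no low-count filter, 2 on log2(FPKM + 1), 0 with the replicate block, 62 with control 3 (P-T3H2-2A replicate 3) as the only control (a lone library, given the spread of the P-T3H2 group), and 0 to 7390 over left-out libraries. Of the 8 genes, those called numbered 0, against 1 with DESeq2 and 0 to 6 over left-out libraries. That 1 was HHEX (log2 fold change -0.76). Over left-out libraries the log2 fold change ran from 0.57 to 1.09 for GATA4, 0.37 to 0.70 for TBX3, 0.45 to 0.89 for CREB3L3, -0.89 to -0.70 for HHEX, -0.21 to -0.090 for CEBPA, -0.31 to -0.14 for CEBPB, 0.148 (without P-T3H2 replicate 1) to 0.69 for PROX1 and -0.13 to 0.0039 for GATA6, each farthest from 0 without control 3, and GATA6 changed sign without P-T3H2-2A replicate 2. With control 3 as the only control, GATA6, CEBPA and CEBPB changed sign (0.077, 0.033 and 0.044). Called members of each pathway and target list numbered 0 with all libraries, with 1 C/EBP target by DESeq2, which also called 2 hepatocyte markers; over left-out libraries they ran from 0 to 2 (GATA), 8 (C/EBP relatives), 7 (CREB3), 8 (PROX1, HHEX and TBX3), 8 (C/EBP targets) and 4 (CREB3L3 targets).

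Without control 3, CEBPA did not pass with the replicate block (-0.20, adjusted p = 0.0572), and PROX1 passed with DESeq2 (0.69) and with the replicate block (0.80, adjusted p = 0.00897). With a further library left out, the log2 fold change of CEBPA ran from -0.23 to -0.19, that of CEBPB from -0.33 to -0.27 and that of PROX1 from 0.40 to 0.84. C/EBP relatives called fell from 8 to 4 on both FPKM scales and to 5 with the block, C/EBP targets from 8 to 4 on both FPKM scales and 5 among genes averaging 5 CPM or more, and CREB3L3 targets from 4 to 1 on both FPKM scales, where fewer genes were tested. The cause of the other changes was not tested. Whether the numbers pair the libraries could not be told. Deviations from the group means correlated across genes at -0.051, 0.163 and 0.112 for same-numbered libraries, and from -0.19 to 0.132 for differently numbered ones. The control means include control 3, which lay apart from the other controls, so this check cannot decide and the block is a hint only. Removing a GC and length trend, chosen after seeing the data, left 1 gene called with all libraries and 7318 without control 3 and changed no member's call. Depth limited what could be shown for antisense genes such as CEBPB-AS1, at 4 to 10 counts.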

Other observations

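CREB3L2, a relative of CREB3L3 in the same family, measured 298, 298 and 276.5 CPM with P-T3H2-2A and 292 and 314 CPM in the first P-T3H2 libraries, but 58.2 CPM in P-T3H2 replicate 3. The fitted log2 change was -0.39 with all libraries (edgeR adjusted p = 0.666). CREB3L3 itself did not set that library apart, at 61.4 CPM beside 63.2 and 58.9 CPM.

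HDAC3, a histone deacetylase that PROX1 recruits, stood at 49.6, 41.3 and 62.1 CPM with P-T3H2-2A and 86.7, 70.0 and 90.8 CPM with P-T3H2, so its groups did not overlap. Its log2 fold change was 0.69 with all libraries (edgeR adjusted p = 0.275), and it rose by 0.86 without P-T3H2-2A replicate 3 (adjusted p = 0.00431). These genes were chosen after their values were seen.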
